A study of Homo sapiens with 4 samples.

Results

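The 10 genes described here, ATF4, ATF3, ATF5, CEBPB, DDIT3, TRIB3, CHAC1, ASNS, PSAT1 and PHGDH, belong to the transcriptional response that cells mount to amino acid stress. They were chosen by name, with earlier results of these data known, from the 29833 genes of the expression table. Each of the 10 had a row. Of these, 9 reached a mean of 1 FPKM (fragments mapped to a gene, scaled to its length and to the size of the library), the level above which fold changes were counted, as did 12750 genes in all. ASNS, with a mean of 0.711 FPKM, lay below it.

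RNA was sequenced from Reh-6-MPR, a subline of the human B-cell precursor acute lymphoblastic leukemia line Reh that was made resistant to 6-mercaptopurine (6-MP), a thiopurine used in the treatment of this leukemia. The cells, labelled as wild type, were grown in RPMI medium with fetal bovine serum and sampled after 48 h under 4 conditions. These were PBS vehicle, histidine (His) at 4 mM, 6-MP at 1.0 μg/mL, and both agents together at those doses (His+6-MP), which ask what each agent does to resistant cells by itself and what the combination adds. Each condition had 1 library, so no difference here has a replicate check. The subline also stands for 1 cell line only.

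Amino acid shortage, endoplasmic reticulum stress, heme shortage and viral RNA each activate a kinase that phosphorylates the translation factor eIF2. General protein synthesis then slows, while translation of the ATF4 messenger increases because of short upstream reading frames in its leader. ATF4 protein, often paired with a C/EBP factor, binds composite C/EBP-ATF elements in genes for amino acid synthesis, transport and tRNA charging and in genes of the stress response itself. The level of ATF4 mRNA is therefore not a measure of ATF4 activity.

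The library totals behind the FPKM values, recovered from those values, were between 12899122 and 15486376 reads, with the combination lowest. The number of reads sequenced is not given by them. The combination also had the most genes above 0, 25443 against 23635 to 23978 in the other libraries. The B-lineage markers matched the label: 9 of 10 had a row, all 9 were above 1 FPKM, and their summed level lay between 1540.2 and 1629.7 FPKM. The monocyte and stromal markers were low but, in sum, highest with His+6-MP. The 3 monocyte markers summed to 2.69 FPKM there against 0.583 to 1.12 elsewhere, from LYZ at 1.39, CSF1R at 1.25 and CD14 at 0.0470, which in vehicle were at 0.324, 0.624 and 0.170. COL1A1, the stromal marker with a row, was at 2.04 against 0.869 to 1.05. The part of these markers in the results was not tested. In bulk RNA, a change in the cells present and a change in RNA per cell cannot be told apart.

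Promoter windows of the 10 genes were searched for the letters of the element that ATF4 is known to bind. In RefSeq windows of 300 bases (GRCh38.p14, 250 before and 50 after a transcript start), the core letters TGATGNAA, or TTNCATCA on the other strand, were found for 3 of the 10 genes and in 3 of their 19 windows. Of all 35116 windows, 3.62% held a match, as did 1.90% of the windows of genes with a mean of at least 1 FPKM. Counted by gene, these shares were 4.46% and 2.52%. The 3 stretches follow 5′ to 3′ along the strand of each gene, with the match in capitals, because they mark 1 gene that was past the fold threshold with His+6-MP, 1 that was higher but under it, and 1 that was barely expressed.
ATF3, chr1:212565200-212565239, plus strand, match at -191 to -184 from the transcript start: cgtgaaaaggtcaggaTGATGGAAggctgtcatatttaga
ASNS, chr7:97872453-97872492, minus strand, match at -68 to -61: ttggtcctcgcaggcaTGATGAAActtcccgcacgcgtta
CHAC1, chr15:40953246-40953285, plus strand, match on the opposite strand at -209 to -202: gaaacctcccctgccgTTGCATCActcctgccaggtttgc
The full cAMP response element TGACGTCA, which reads the same on both strands, does not match the composite letters and was in 1.85% of all windows and in none of the 19. These matches describe letters within short windows, and the windows of ATF5, CEBPB, DDIT3 and TRIB3 were without either motif.

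With histidine or 6-MP alone, none of the 9 genes differed from vehicle by 1 or more on the log2(FPKM + 1) scale, the scale and threshold of all fold changes counted below. Of all genes tested, 1.33% passed that threshold with histidine and 1.18% with 6-MP, in either direction. With the combination, 5 of the 9 were past it against vehicle, and all 5 were higher: ATF5, ATF3, CEBPB, TRIB3 and DDIT3. Of all genes tested, 5.01% were higher by this measure and 1.51% lower. The same 5 genes were past the threshold against 6-MP, where 4.82% of all genes were higher and 1.20% lower, and against histidine, where 4.15% were higher and 1.40% lower. These 3 comparisons share the combination library, so they are 3 readings of it and not separate evidence. The median log2 fold change of the 9 genes was 1.05, 1.03 and 1.01 in the 3 comparisons, beside 0.13, 0.13 and 0.11 over all genes tested. It was -0.06 with histidine alone and -0.00 with 6-MP alone.

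How the libraries were scaled bears on these counts. As deposited, 76.8% of all genes past the threshold against vehicle were higher, 80.1% against 6-MP and 74.8% against histidine. After scaling each library by its median ratio to the geometric mean of the 4, these shares became 54.7%, 57.8% and 55.1%. The median of all genes tested shifted by -0.20, -0.19 and -0.17, to -0.07, -0.07 and -0.06. The number of the 9 genes past the threshold then became 3 against vehicle (ATF5, ATF3 and CEBPB), 2 against 6-MP (ATF5 and ATF3) and 3 against histidine (ATF5, ATF3 and TRIB3). Of all 12750 genes tested, 407 were then higher and 337 lower against vehicle. These numbers were 375 and 274 against 6-MP, and 357 and 291 against histidine. Median ratio scaling over the genes tested only, chosen after seeing the data, put the median of all genes tested at 0.0, 0.01 and -0.0. It left 4 of the 9 past the threshold against vehicle (ATF5, ATF3, TRIB3 and CEBPB). It left 3 against 6-MP (ATF5, ATF3 and TRIB3) and 4 against histidine (ATF5, ATF3, TRIB3 and DDIT3). Over all genes, 472 were then higher and 272 lower against vehicle, 448 and 222 against 6-MP, and 410 and 245 against histidine. ATF5 and ATF3 were past the threshold in these 3 comparisons under every scaling run.

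**Figure D1:**
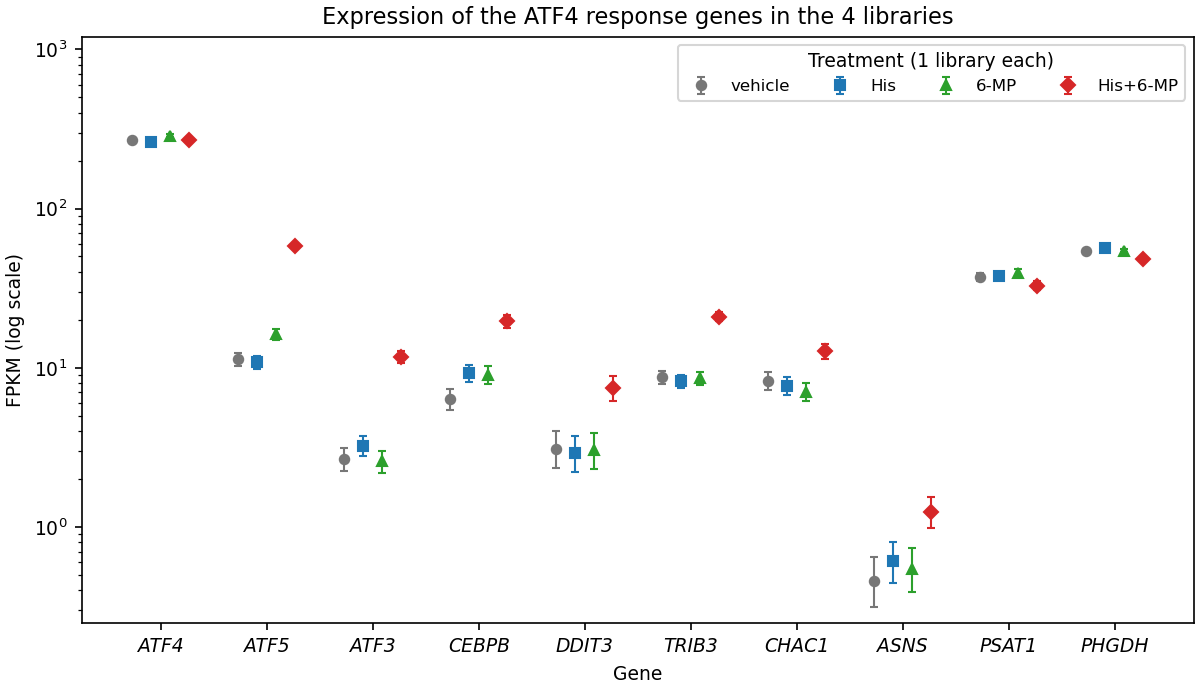
FPKM of the 10 genes in the 4 libraries, on a log axis, with 95% intervals for counting error only. ATF5, ATF3, CEBPB, TRIB3, DDIT3 and CHAC1 were each highest in His+6-MP, while ATF4 stayed between 260.9 and 287.1 FPKM.

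Whole read numbers could be recovered from the steps of the FPKM values, so each value below has its reads. Read ratios are of reads per library total, with exact 95% Clopper-Pearson intervals that cover counting error only and compare libraries, not treatments. Such an interval lay clear of no change for 3 of the 9 genes with histidine alone, where 21.7% of all genes did, and for 3 with 6-MP alone, where 18.0% did. Against vehicle, the combination gave 6 intervals above and 2 below no change, against 6-MP 6 above and 3 below, and against histidine 7 above and 2 below. Over all genes the shares were 63.6%, 63.5% and 63.3%, so an interval clear of no change was common in this library.

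ATF4 (chr22:39519695-39522683, plus strand, hg38 as deposited, like the gene coordinates that follow) encodes the transcription factor on which the response converges. It stood at 271.4 FPKM in vehicle, 260.9 under histidine, 287.1 under 6-MP and 269.7 under the combination, from 9090 to 11508 reads. The 4 values lay close together, and each was at percentile 99.3 of the genes tested. Against vehicle, the combination gave a log2 read ratio of -0.01 (95% interval -0.05 to 0.03). The ratio was -0.09 against 6-MP (-0.13 to -0.05) and 0.05 against histidine (0.01 to 0.09). The direction against vehicle and against histidine depended on scaling, with log2 fold changes from -0.25 to 0.03 and from -0.16 to 0.07 over the scalings run. The processed pseudogene ATF4P3 had 38 to 73 reads, so reads that could belong to a copy were few beside those of ATF4.

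ATF5 (chr19:49928702-49933935, plus strand) encodes a close relative of ATF4 whose messenger has a similar leader and which is known for its part in the mitochondrial stress response. It measured 11.3 FPKM in vehicle, 10.8 under histidine, 16.2 under 6-MP and 58.4 under the combination, from 469, 485, 717 and 2178 reads. The combination was far above the other libraries and moved ATF5 from percentile 67.8 of the genes tested to 95.6. It was 5.15-fold above vehicle (4.66 to 5.71), 3.61-fold above 6-MP (3.32 to 3.94) and 5.39-fold above histidine (4.88 to 5.96). On the log2(FPKM + 1) scale the differences were 2.27, 1.79 and 2.33, and that against vehicle ranked 31 from the highest of all genes tested. ATF5 was also 1.43-fold higher with 6-MP alone than in vehicle (1.27 to 1.61), under the threshold, while histidine alone was level with vehicle within counting error. On the opposite strand ATF5 overlaps NUP62, which went from 37.2 to 23.7 FPKM between vehicle and combination, and IL4I1, which went from 0.476 to 1.27. Whether counting used strand is not given in the sources used here.

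ATF3 (chr1:212565334-212620777, plus strand) encodes an early stress factor that binds cAMP-responsive sites and represses or activates by its partner. It was at 2.66 FPKM in vehicle, 3.24 under histidine, 2.58 under 6-MP and 11.7 under the combination, from 154, 203, 160 and 612 reads. Neither single agent differed from vehicle beyond counting error, with intervals of 0.983 to 1.51 for histidine and 0.772 to 1.22 for 6-MP. The combination was above all 3 at 4.41-fold above vehicle (3.69 to 5.30), 4.55-fold above 6-MP (3.82 to 5.45) and 3.62-fold above histidine (3.08 to 4.26). Its log2 fold changes were 1.80, 1.83 and 1.59, and its rank among all genes tested was 109, 101 and 147 from the highest. Its percentile by level moved from 27.2 in vehicle to 66.0.

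CEBPB (chr20:50190830-50192668, plus strand) encodes C/EBPβ, a leucine zipper factor that can pair with ATF4. It stood at 6.34 FPKM in vehicle, 9.23 under histidine, 9.04 under 6-MP and 19.6 under the combination, from 167, 263, 255 and 464 reads. It was the 1 gene of the 10 for which both single agents were above vehicle with intervals clear of no change, 1.46-fold for histidine (1.19 to 1.78) and 1.42-fold for 6-MP (1.17 to 1.74), each under the threshold. The combination was 3.08-fold above vehicle (2.58 to 3.70), 2.16-fold above 6-MP (1.85 to 2.53) and 2.12-fold above histidine (1.82 to 2.47). The log2 fold changes were 1.49, 1.03 and 1.01. After median ratio scaling the last 2 were 0.81 each, and with that scaling over the genes tested only they were 0.9 and 0.88. Monocytes are rich in CEBPB, and the summed monocyte markers were highest in the same library at 2.69 FPKM, with LYZ and CSF1R above and CD14 below their vehicle levels. Their part in the CEBPB result was not tested. CEBPB-AS1, on the opposite strand, stayed at or under 1.02 FPKM.

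DDIT3 (chr12:57516588-57521737, minus strand) encodes CHOP, the factor tied to cell death under prolonged stress. Its levels were low, at 3.10 FPKM in vehicle, 2.91 under histidine, 3.04 under 6-MP and 7.47 under the combination, from 58, 59, 61 and 126 reads. Both single agents were within counting error of vehicle, and the combination lay above all 3. The ratio to vehicle was 2.41-fold (1.75 to 3.35), to 6-MP 2.46-fold (1.80 to 3.39) and to histidine 2.56-fold (1.87 to 3.55). The log2 fold changes of 1.05, 1.07 and 1.11 were just past the threshold, and after median ratio scaling they were 0.84, 0.87 and 0.94. With that scaling over the genes tested only, they were 0.92, 0.94 and 1.0. DDIT3 overlaps MARS1 and MBD6 on the opposite strand, and MARS1 went from 39.7 FPKM in vehicle to 27.7 in the combination.

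TRIB3 (chr20:362835-397559, plus strand) encodes a pseudokinase that is induced by ATF4 and CHOP and in turn restrains them. It measured 8.72 FPKM in vehicle, 8.20 under histidine, 8.62 under 6-MP and 20.9 under the combination, from 411, 418, 435 and 886 reads. As for DDIT3, the single agents were level with vehicle within counting error and the combination was above. It was 2.39-fold above vehicle (2.13 to 2.70), 2.42-fold above 6-MP (2.16 to 2.72) and 2.54-fold above histidine (2.26 to 2.87). Its log2 fold changes were 1.17, 1.19 and 1.25. Median ratio scaling brought them to 0.94, 0.96 and 1.06, so that only the last was still past 1. With that scaling over the genes tested only, they were 1.02, 1.05 and 1.12, all past it.

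CHAC1 (chr15:40952962-40956512, plus strand) encodes a γ-glutamylcyclotransferase that breaks down glutathione. It was at 8.24 FPKM in vehicle, 7.68 under histidine, 7.05 under 6-MP and 12.7 under the combination, from 242, 244, 222 and 335 reads. The combination was the highest library, but the log2 fold changes of 0.56, 0.76 and 0.65 did not reach the threshold. In reads it was 1.54-fold above vehicle (1.30 to 1.82), 1.79-fold above 6-MP (1.51 to 2.14) and 1.65-fold above histidine (1.39 to 1.95). Of all genes tested, 83.4% had a smaller log2 fold change against vehicle than CHAC1.

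**Figure D2:**
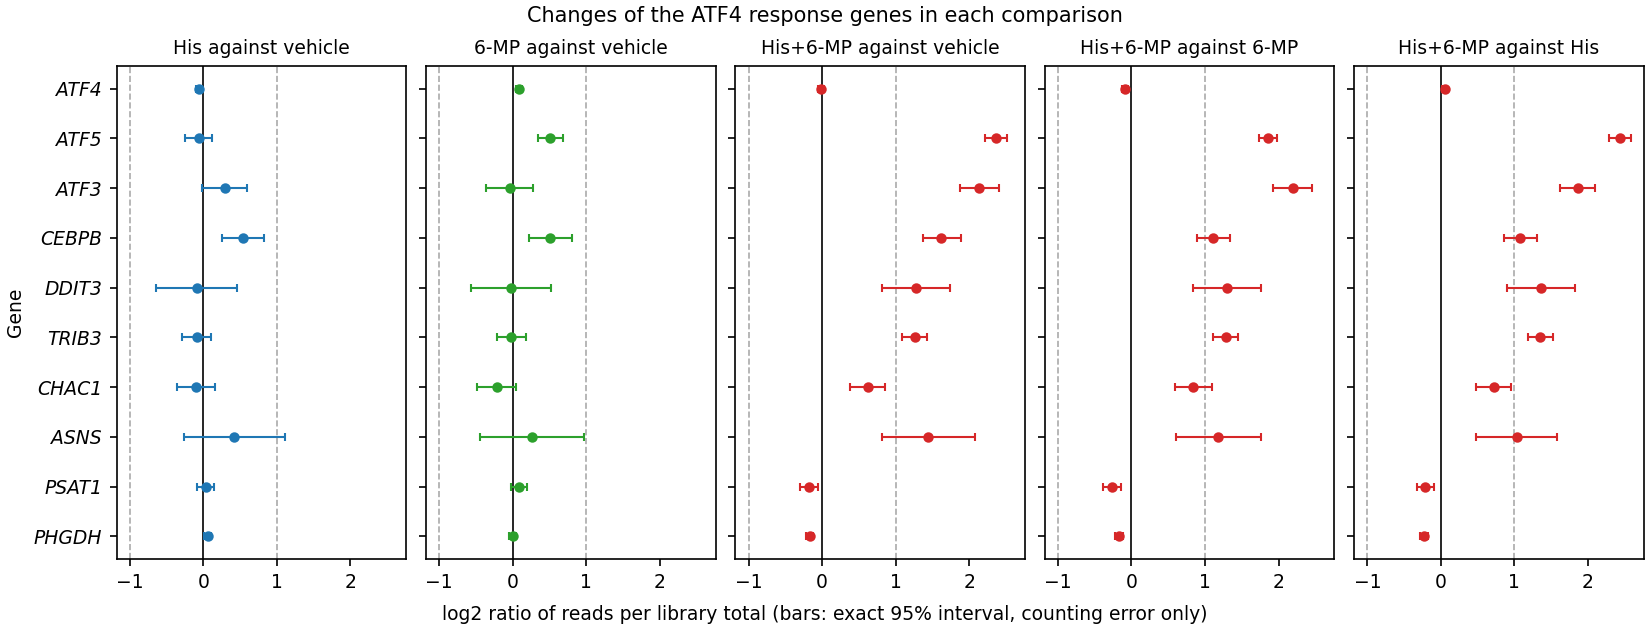
Log2 read ratios of the 10 genes in the 5 comparisons, with exact 95% intervals for counting error only. The points of ATF5 (2.37 against vehicle) and ATF3 (2.14) lie farthest to the right in the combination, and those of PSAT1 and PHGDH lie slightly below 0.

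Of the 3 enzymes of amino acid synthesis, ASNS had a mean under 1 FPKM. PHGDH and PSAT1 were lower in the combination, under the threshold. ASNS (chr7:97851677-97872542, minus strand), asparagine synthetase, makes asparagine from aspartate and is the classic amino acid response gene. It was barely expressed at 0.457 FPKM in vehicle, 0.607 under histidine, 0.546 under 6-MP and 1.24 under the combination, from 32, 46, 41 and 78 reads. Even at 1.24 FPKM it stood at percentile 4.1 of the genes tested. The log2 read ratio of combination to vehicle was 1.44 (0.82 to 2.08), to 6-MP 1.18 (0.61 to 1.76) and to histidine 1.03 (0.48 to 1.58), while the difference on the log2(FPKM + 1) scale was 0.62 against vehicle because the values were so small. A long noncoding gene on the same strand, ENSG00000284707, covers 44.6% of the ASNS exon bases and had 38 to 67 reads, so the ASNS level depends on how shared reads were assigned and is uncertain.

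PHGDH (chr1:119648411-119744218, plus strand) and PSAT1 (chr9:78297125-78330093, plus strand) catalyse successive steps of serine synthesis from glycolysis. PHGDH was at 54.5 FPKM in vehicle, 56.8 under histidine, 54.5 under 6-MP and 48.4 under the combination, from 5737 to 8081 reads. PSAT1 was at 37.0, 37.8, 39.3 and 32.7 FPKM in the same order, from 930 to 1330 reads. Both were well expressed in every library and lowest in the combination. Against vehicle the ratio was 0.888 for PHGDH (0.857 to 0.919) and 0.884 for PSAT1 (0.810 to 0.964), under the threshold. On the log2(FPKM + 1) scale both differences were -0.17, and after median ratio scaling both were -0.41. PSPH, the last enzyme of the same pathway, was at 24.2 FPKM in vehicle and 18.0 in the combination, a log2 fold change of -0.41.

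The 2 by 2 layout also allowed each gene in the combination to be set against the product of the 2 single-agent ratios. For ATF5 that product gave 15.4 FPKM and 58.4 was measured, a log2 departure in reads of 1.92 (95% interval from counting error 1.70 to 2.14). For ATF3 it gave 3.15 against 11.7 measured, a departure of 1.90 (1.51 to 2.29). DDIT3 departed by 1.39 (0.70 to 2.07), TRIB3 by 1.37 (1.11 to 1.62) and CHAC1 by 0.95 (0.59 to 1.30). The departure of CEBPB was smaller, 0.57 (0.22 to 0.93), with 13.2 FPKM from the product and 19.6 measured. That of ASNS was 0.77 with an interval from -0.08 to 1.62, and ATF4 was at -0.03 (-0.09 to 0.02). PSAT1 at -0.30 (-0.46 to -0.13) and PHGDH at -0.23 (-0.30 to -0.16) lay below the product. Over all genes tested the median departure on the log2(FPKM + 1) scale was 0.106, with 4.85% at 1 or more and 1.91% at -1 or less, and ATF5, ATF3, TRIB3 and DDIT3 were past 1 on that scale at 1.85, 1.62, 1.27 and 1.13. After median ratio scaling these were 1.66, 1.44, 1.08 and 0.96, so DDIT3 was then under 1. ATF4, PSAT1 and PHGDH were then at -0.23, -0.48 and -0.42. With that scaling over the genes tested only, DDIT3 departed by 1.03.

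**Figure D3:**
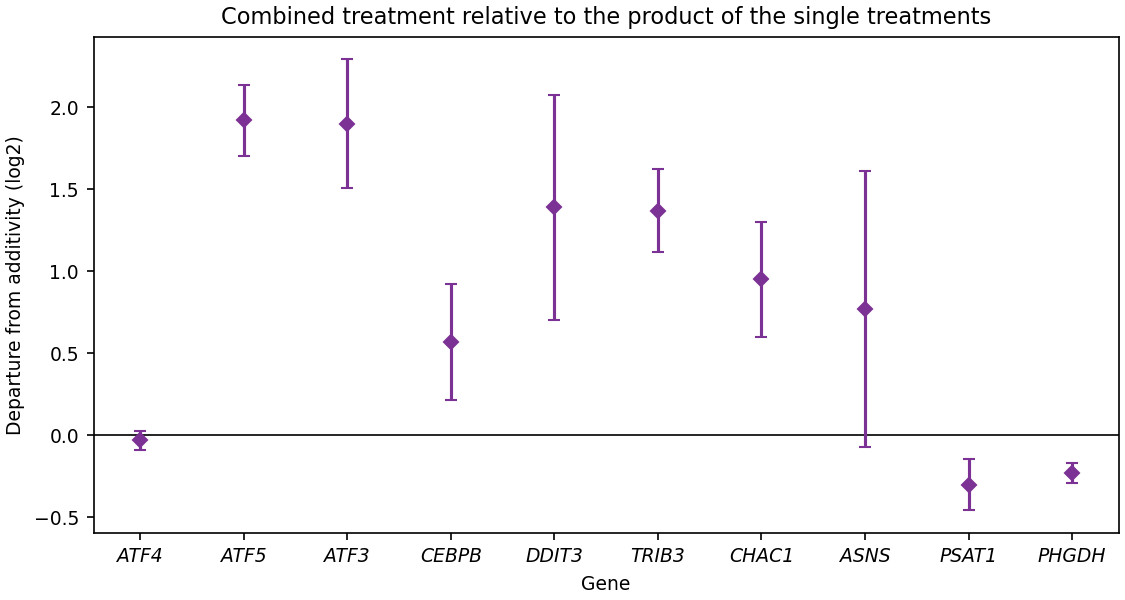
Log2 departure in reads of each of the 10 genes from the product of the single-agent ratios, with 95% intervals from counting error only. ATF5 at 1.92 and ATF3 at 1.90 lie farthest above 0, and PSAT1 at -0.30 lies farthest below.

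Other genes of the pathway were counted on the values as deposited and under no other scaling. They came from 5 lists chosen with earlier results of these data known. None of them held a gene past the threshold with either single agent. Few genes were past it at all, 1.33% of those tested with histidine and 1.18% with 6-MP. Among the 13 eIF2 kinases, phosphatase subunits and eIF2B subunits, 1 was higher in the combination than in vehicle and none lower, where 5.01% of all genes were higher, and the median log2 fold change was 0.03 beside 0.13 over all genes. The 1 was PPP1R15A (GADD34), the stress-induced subunit that brings a phosphatase to eIF2 and ends the response. It measured 5.67 FPKM in vehicle, 5.98 under histidine, 6.29 under 6-MP and 16.2 under the combination, a log2 fold change of 1.36. The next highest was EIF2B2 at 0.32, and the lowest were GCN1, the coactivator of the kinase that senses uncharged tRNA, at -0.50 and EIF2B3 at -0.49.

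In the ATF and C/EBP family, 13 of 14 genes had a row and 12 were tested, with 1 higher, none lower and a median of 0.14 beside 0.13 over all genes. JDP2, a leucine zipper repressor related to ATF3, was at 1.48, 1.81, 1.44 and 4.48 FPKM in vehicle, histidine, 6-MP and combination, a log2 fold change of 1.14 against vehicle and 0.97 against histidine. CEBPE followed at 0.40, and ATF6B at -0.40 and CREB1 at -0.22 were the lowest. The shares of all genes past the threshold against vehicle were, as given above, 5.01% higher and 1.51% lower.

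Of 28 further amino acid response targets, 26 had a row and 19 were tested, with 2 higher, none lower and a median of 0.23 beside 0.13 over all genes. DDIT4 (REDD1), an inhibitor of mTORC1, was at 20.9, 20.5, 22.4 and 60.3 FPKM in vehicle, histidine, 6-MP and combination, a log2 fold change of 1.48. TNFRSF10B, the death receptor DR5 and a known target of CHOP, was at 26.1, 24.7, 26.6 and 64.2 FPKM, a change of 1.26. The lowest were ALDH18A1, which starts proline synthesis from glutamate, at -0.64 (49.4 to 31.3 FPKM) and PSPH.

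The 13 tRNA synthetases, which charge tRNAs with amino acids and are known ATF4 targets as a group, held none past the threshold against vehicle. Of all genes tested, only 5.01% were higher and 1.51% lower. The median of the 13 was -0.22 beside 0.13 over all genes. Their counting intervals lay below no change for 10 and above it for 3, while over all genes 2655 lay below and 5444 above. SARS1 was the highest at 0.66 (40.5 to 64.8 FPKM), followed by WARS1 at 0.21, and the lowest were LARS1 and IARS1 at -0.53 each. Their promoter windows were the richest of these lists in the composite letters shown above. Of 11 genes with a window, 7 held them, IARS1 among them, beside 4.46% of all genes with a window. The share was 2.52% among genes with a mean of at least 1 FPKM. The 15 ER chaperones and processing genes, of the ATF6 and XBP1 branches of the unfolded protein response, also held none past the threshold. The shares over all genes were the same 5.01% and 1.51%, and the median of the 15 was -0.30. HSPA5 (BiP), the main ER chaperone, went from 54.8 to 31.2 FPKM (-0.79) and SDF2L1 was at -0.69, while CRELD2 was at 0.56 and DNAJB9 at 0.49. None of the 15 had the composite letters in its windows.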

How the data were processed

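RNA from 4 samples of Reh-6-MPR cells, 1 per condition, was extracted with Trizol and made into libraries with a stranded mRNA kit. The submitters' processing notes name Trimmomatic, HISAT2, Cufflinks and HTSeq and the build hg38/GRCh38, without versions, and whether counting used strand is not given in the sources used here. The deposited table gives FPKM per gene, made by the authors from the reads, and these values already carry their scaling by library size and gene length. The coordinates are those of the same table.

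Within a library, the FPKM of a gene moves in steps of a fixed size, each equal to 1 read, and read numbers were recovered from these steps for 29786 of 29833 genes (99.842%, tolerance 0.01 reads). These summed to between 99.563% and 99.824% of the library totals used by the authors. For 3334 genes, PSAT1 among them, the 4 read numbers shared a common factor, which was set from exon lengths in GENCODE 29. No count test was run, since 1 library per condition leaves no spread to estimate.

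Fold changes are differences of log2(FPKM + 1) among genes with a mean of at least 1 FPKM, and an absolute value of 1, the fold part of the study's own rule, was the threshold. A pseudocount of 1 understates the change of low genes. Read ratios have exact 95% Clopper-Pearson intervals, for counting error only. Departures from the product of the single-agent ratios have normal intervals from the same counting error. The recovery of reads and the fold changes were tested on simulated data with counting error only. The planted changes were larger than the threshold and in well-expressed genes, so changes near the threshold were not tried. Promoter windows came from RefSeq, and all 10 genes had at least 1. The tools were numpy 2.4.6, scipy 1.17.1, pandas 2.3.3 and matplotlib 3.10.9 under Python 3.11.15.

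The 10 genes, the 5 further lists and the thresholds were chosen with earlier results of these data known, so a pattern in them is not independent evidence. In each further list the 2 highest and the 2 lowest genes against vehicle were named, beside any past the threshold. The alternatives were other pseudocounts, filters, scalings and a higher threshold. Of the marker lists of other cell types, 2 are not reported here.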

Additional observations from a re-analysis of the deposited data

Results flagged for a closer look

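PHGDH, the first enzyme of serine synthesis, was the 1 gene of the 10 whose histidine difference pointed opposite ways without and with 6-MP, with both counting intervals clear of no change. Histidine against vehicle gave a log2 fold change of 0.06 (54.5 and 56.8 FPKM), and His+6-MP against 6-MP gave -0.17 (54.5 and 48.4 FPKM). After median ratio scaling these were 0.02 and -0.4. Over all alternatives the first lay between 0.02 and 0.07 and the second between -0.4 and -0.15. Both kept their direction, the first at a small size, and the counting intervals were not computed again after scaling. Over all genes, 21.7% and 63.5% had intervals clear of no change in the same comparisons, each taken by itself. The share of all genes with clear intervals on opposite sides was not counted, so how common this pattern is was not tested. With 1 library per condition the difference between the changes of PHGDH was not tested. The departure from the product of the single-agent ratios was -0.23, with an interval from -0.30 to -0.16 that covers counting error only.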

How the results depend on the processing

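No paired analysis was possible because each condition had 1 library, and for the same reason no library could be left out. No called fold change of the 10 genes changed sign (15 of 15), and 46 of all 50 kept it. The 15 were the same 5 genes in 3 comparisons that share the combination library. Changes of at least 1 were large beside the shifts from scaling, so their sign could hardly have changed. Median log2 fold change of the tested genes in the combination against vehicle, 1.05, was 1.26 with no pseudocount, 0.83 with no filter and 0.84 with median ratio scaling. Against 6-MP it went from 1.03 to 0.81 with that scaling. The 5 genes past the threshold became 3 against vehicle, 2 against 6-MP and 3 against histidine with median ratio scaling, and 2 in each comparison (ATF5 and ATF3) at a threshold of 1.5. Median ratio scaling over the genes tested only, chosen after seeing the data, left 4 against vehicle, 3 against 6-MP and 4 against histidine. Over all genes, the counts in the same order were 744, 649 and 648 with median ratio scaling. They were 744, 670 and 655 with that scaling over the genes tested only. Over all genes, the counts past the threshold of 170, 151, 832, 767 and 707 (histidine, 6-MP, and the combination against vehicle, 6-MP and histidine) became 389, 389, 1513, 1397 and 1278 with a pseudocount of 0.1. They became 361, 361, 1529, 1399 and 1317 with none, 374, 344, 1245, 1172 and 1119 with no filter, 21, 17, 303, 269 and 264 at a mean of at least 5 FPKM, and 50, 51, 266, 246 and 224 at a threshold of 1.5. The filters and the higher threshold admit other genes by construction, and for the pseudocounts and scalings the cause was not tested. Depth limited DDIT3 and ASNS most, with 126 and 78 reads in the combination.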

Other observations

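Values chosen after they were seen add a few genes of the same pathway. GDF15 encodes a stress-induced cytokine and is a known target of ATF4 and CHOP. It had 3 reads in vehicle, 0 under histidine, 1 under 6-MP and 38 under the combination, where it stood at 1.41 FPKM. Its mean was under 1 FPKM, as for other genes of the further target list that had few reads. Between vehicle and combination, SLC6A9 went from 2 to 16 reads, PYCR1 from 0 to 1, and GPT2 had 1 in each. STC2 went from 3 to 2, ALDH1L2 from 12 to 10 and VLDLR from 10 to 4. SESN2, a leucine sensor that restrains mTORC1, was at 3.51 FPKM in vehicle, 1.94 under histidine, 4.18 under 6-MP and 4.08 under the combination, so its lowest level was with histidine alone (log2 fold change -0.62 against vehicle).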
